A study of Mus musculus with 14 samples.

Results

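Ttbk2, Ehd4, Zfyve19, Ltk and Slc4a11 are 5 genes of mouse chromosome 2, the chromosome that also carries Bcl2l11, the gene of the death-promoting protein Bim. They were found by gene symbol, with 1 probe set each, among the 19937 genes of an array study of 14 samples, and all 5 lie among the 14438 genes bright enough to be tested. They had been picked because their signal differed between arrays labelled Bim-deficient and Bim-sufficient. Their values in that comparison are therefore given as a description, with no test.

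All samples were OT-I effector CD8+ T cells, which carry a T cell receptor for a peptide of ovalbumin, sorted on day 6 after infection with Listeria expressing ovalbumin. The donors were fetal liver chimeras, and their cells had been moved into congenic recipients 1 day before the infection. Every sample is labelled as strain C57BL/6J, and no age is given. The genotypes were Id2KOBimKO (2 arrays), BimKO (2 arrays) and Id2KO (2 arrays), each sorted as KLRG1lo. Wild-type (WT) cells were sorted both as KLRG1hi (3 arrays) and as KLRG1lo (5 arrays). KLRG1 is an inhibitory receptor that marks terminal effector cells. The labels do not name the targeted alleles, the cells in which the genes were deleted, or whether samples came from separate animals, so that p-values measure only the spread between these samples. "Bim-deficient" below means the 4 arrays labelled BimKO or Id2KOBimKO, and "Bim-sufficient KLRG1lo" the 7 arrays labelled Id2KO or WT KLRG1lo.

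Bim is a BH3-only protein that starts mitochondrial death when activated T cells are culled. A gene deleted in embryonic stem cells stays joined to the stretch of chromosome around it, so that mice bred for the deletion can keep flanking DNA of the stem cells' strain. Whether such DNA is present here is not known from the labels. Any flanking DNA and the loss of Bim would both go with the Bim label on every array, and they cannot be told apart. Among the 5 genes, Ttbk2 encodes a kinase that starts the assembly of cilia at the mother centriole, and Ehd4 an ATPase that shapes membranes of recycling endosomes. Zfyve19 encodes a FYVE-domain protein of the abscission checkpoint at the end of cell division, Ltk a receptor tyrosine kinase related to Alk, and Slc4a11 a membrane transporter whose human counterpart is mutated in corneal endothelial dystrophy.

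The promoters of 4 of the 5 genes were found in a RefSeq table of assembly GRCm38.p6, and those of the 3 genes whose arrays separated by the Bim label are shown. Of these, Ttbk2 and Ehd4 were higher and Zfyve19 lower on the Bim-deficient arrays. Each is the stretch of 250 bases before the gene's start, 5′ to 3′ on the gene's strand. They are the reference sequence of C57BL/6J and were not read from these samples.
Ttbk2 promoter, chr2:120850585-120850834, minus strand: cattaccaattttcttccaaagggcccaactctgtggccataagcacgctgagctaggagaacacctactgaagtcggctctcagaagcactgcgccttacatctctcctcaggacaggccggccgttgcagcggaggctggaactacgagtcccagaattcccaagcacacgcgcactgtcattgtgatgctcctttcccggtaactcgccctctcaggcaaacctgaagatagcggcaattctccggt
Ehd4 promoter, chr2:120154576-120154825, minus strand: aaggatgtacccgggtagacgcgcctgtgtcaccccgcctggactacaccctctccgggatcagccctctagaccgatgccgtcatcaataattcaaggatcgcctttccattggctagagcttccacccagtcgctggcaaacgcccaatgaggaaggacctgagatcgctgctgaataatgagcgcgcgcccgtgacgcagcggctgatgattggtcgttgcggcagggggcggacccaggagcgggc
Zfyve19 promoter, chr2:119208470-119208719, plus strand: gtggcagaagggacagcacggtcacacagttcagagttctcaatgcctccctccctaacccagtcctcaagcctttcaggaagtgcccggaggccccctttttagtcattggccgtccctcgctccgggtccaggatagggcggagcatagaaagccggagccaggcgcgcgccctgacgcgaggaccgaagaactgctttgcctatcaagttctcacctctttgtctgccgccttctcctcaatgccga
No letter is in capitals because the motif searched, the E box CANNTG bound by the E proteins that Id2 inhibits, was in none of them. It reads the same on both strands. It was also in neither the promoter of Ltk nor that of a second, overlapping start of Ttbk2, while 66.2% of the table's 32851 promoters held it. Its forms CAGCTG and CAGGTG (searched on both strands) are special cases of it and were in 13.0% and 17.2% of all promoters. The missing match says only that these letters are not in these windows. The GC content was 55.2% for Ttbk2, 61.2% for Ehd4, 59.6% for Zfyve19 and 68.8% for Ltk, against a mean of 53.2% over all promoters.

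The deposited values were RMA signals on a linear scale and are given as log2 of that signal. The array medians ran from 49.2 to 56.8 on the linear scale. The median log2 signal of the probe sets with no gene name ran from 5.01 to 5.39 over the arrays and serves as a mark of dim signal. Id2 was at 9.84 and 9.64 on the Id2KOBimKO arrays and 9.88 and 9.73 on the Id2KO arrays, below the 10.75 and 10.93 of the BimKO arrays and the 10.78 to 11.16 of the WT KLRG1lo arrays. Bcl2l11 did not separate by the Bim label. It was at 7.59 and 8.01 in Id2KOBimKO and 7.36 and 7.66 in BimKO cells, against 7.88 and 8.03 in Id2KO and 7.44 to 7.92 in WT KLRG1lo cells. The position of its probe set relative to the deleted part is not known here, so the signal does not check the label, and each Bim genotype below is the one on the label. The Id2KO arrays stood apart in sex-linked genes. Xist, which silences an X chromosome in females, was at 4.47 and 4.99 there and between 8.37 and 10.36 on the other 12 arrays. Eif2s3y, a gene of the Y chromosome, was at 7.39 and 8.20 there and between 2.92 and 3.66 on the others. That is a male pattern on the Id2KO arrays and a female one on the rest. The mean Bim difference is the mean of both Bim-deficient groups minus the mean of both Bim-sufficient KLRG1lo groups, and it is also given without the Id2KO arrays, that is, against WT KLRG1lo cells alone. Cd8a and the other markers of CD8 T cells were bright on every array, with a summed linear signal of 16529 to 21882 on Bim-deficient and 17623 to 26180 on Bim-sufficient KLRG1lo arrays.

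Ttbk2, Ehd4 and Ltk were higher and Zfyve19 and Slc4a11 lower on the Bim-deficient arrays, by 1.37-fold (Ltk) to 2.09-fold (Ttbk2) among the 4 genes above the level of unnamed probe sets. Ttbk2 had a log2 signal of 7.24 and 7.30 in Id2KOBimKO cells and 6.98 and 7.31 in BimKO cells, against 6.16 and 6.33 in Id2KO cells and 6.16, 6.10, 6.09, 6.04 and 5.86 in WT KLRG1lo cells. All 4 Bim-deficient arrays lay above all 7 Bim-sufficient KLRG1lo arrays. The WT KLRG1hi arrays, which the choice of the gene did not use, were at 5.51, 6.34 and 6.02, so that Ttbk2 was also above these. The mean difference was 1.06 on the log2 scale (SE 0.15, 95% interval 0.74 to 1.38), and without the Id2KO arrays it was 1.16.

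Ehd4 had a log2 signal of 7.40 and 7.36 in Id2KOBimKO cells and 6.94 and 7.02 in BimKO cells, against 6.56 and 6.85 in Id2KO cells and 6.40, 6.66, 6.09, 6.28 and 5.83 in WT KLRG1lo cells. The lowest Bim-deficient array was above the highest Bim-sufficient KLRG1lo array by a small margin. WT KLRG1hi arrays were at 6.20, 6.77 and 6.96, and the highest of them reached into the Bim-deficient range. The mean difference of Ehd4 was 0.70 (SE 0.17), 1.63-fold higher, and 0.93 without the Id2KO arrays.

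Zfyve19 went the other way. Its log2 signal was 6.73 and 6.64 in Id2KOBimKO cells and 6.46 and 5.90 in BimKO cells, against 6.98 and 7.04 in Id2KO cells and 6.91, 6.86, 6.85, 6.92 and 6.78 in WT KLRG1lo cells. The 4 Bim-deficient arrays were all lower than the 7 others, but the BimKO arrays lay farther from each other than BimKO replicate 1 lay from the lowest Bim-sufficient KLRG1lo array. The WT KLRG1hi arrays were at 6.58, 7.20 and 7.06, and the lowest of them fell within the Bim-deficient range. The mean difference was -0.51 (SE 0.14), and -0.43 without the Id2KO arrays. Leaving out BimKO replicate 1 or replicate 2 moved it to -0.65 or -0.37.

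Ltk overlapped between the labels. It had a log2 signal of 6.77 and 6.88 in Id2KOBimKO cells and 6.51 and 6.81 in BimKO cells, against 6.26 and 6.17 in Id2KO cells and 6.59, 6.24, 6.41, 6.35 and 6.21 in WT KLRG1lo cells. WT KLRG1lo replicate 1 lay above BimKO replicate 1, and only the Id2KO background separated fully. WT KLRG1hi arrays were at 6.54, 6.62 and 6.10. The mean difference of Ltk was 0.46 (SE 0.13), and 0.39 without the Id2KO arrays.

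Slc4a11 was dim on every array. Its log2 signal was 5.16 and 5.15 in Id2KOBimKO cells and 4.57 and 4.78 in BimKO cells, against 5.45 and 5.24 in Id2KO cells and 5.60, 5.01, 5.26, 5.34 and 5.39 in WT KLRG1lo cells. These values lie within or below the range of the unnamed probe sets for all but 3 arrays, and the Id2KOBimKO values overlapped the WT ones. WT KLRG1hi arrays were at 5.09, 5.12 and 5.07. The mean difference was -0.42 (SE 0.13), -0.41 without the Id2KO arrays, and -0.28 when an offset of 16 was added to the linear signal before the log.

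**Figure D1:**
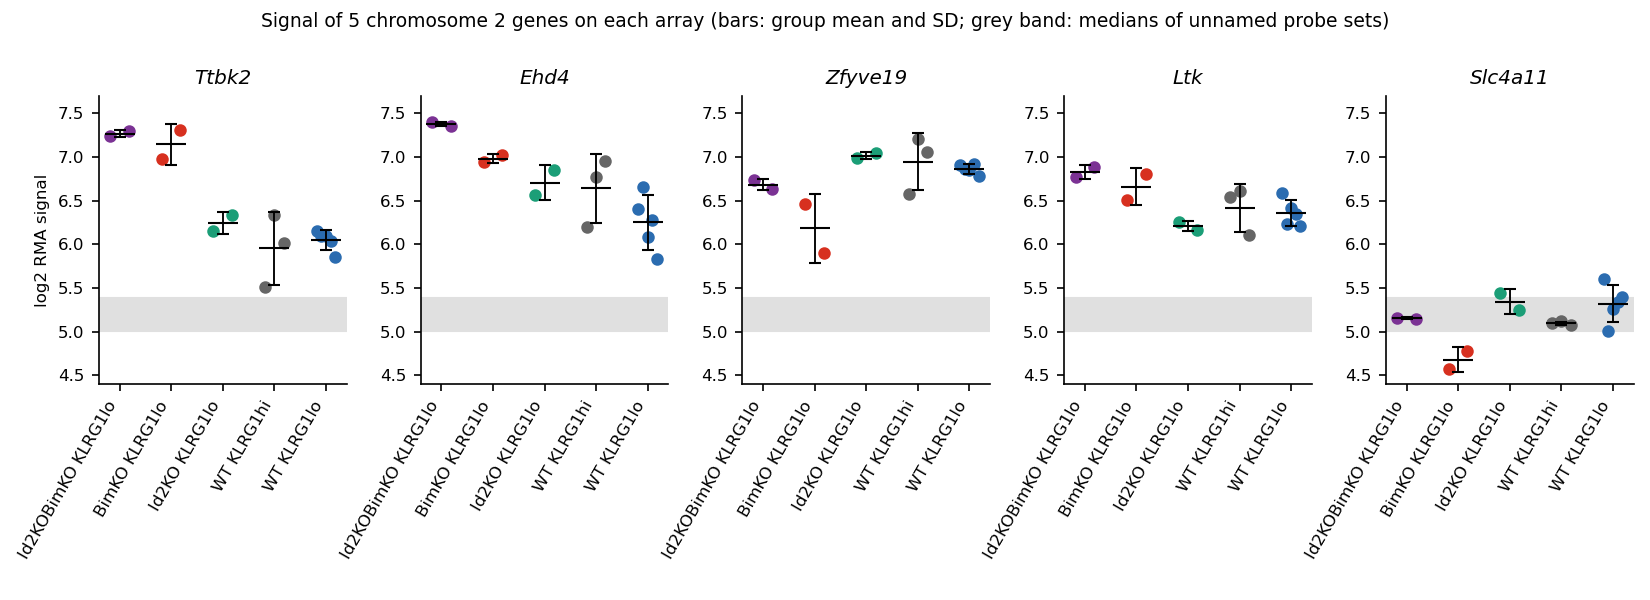
Log2 RMA signal (vertical axis) of the 5 genes on each of the 14 arrays, by group. Points are arrays, bars are the group mean and SD, and the grey band is the range of the arrays' medians of unnamed probe sets; Ttbk2 lies between 6.98 and 7.31 on the 4 Bim-deficient arrays and at or below 6.34 on the other 10, and Slc4a11 lies in or near the band.

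The rule set these separations, and the figures for all genes are given for scale. The 4 Bim-deficient arrays did not overlap the 7 Bim-sufficient KLRG1lo arrays in 51 of the 14438 genes tested (0.353%), 15 higher and 36 lower, and 3 of the 5 chosen genes were among them. Once the KLRG1hi arrays were added to the Bim-sufficient side, 29 genes (0.201%) still did not overlap, and 1 of the 5, Ttbk2, remained. In limma's model of 5 group means, 5 genes of the whole table had an adjusted p under 0.05 (Benjamini-Hochberg) for the mean Bim difference (0.0346%). Of these, 4 were the sex-linked genes Xist, Eif2s3y, Uty and Kdm5d, and without the Id2KO arrays, an alternative chosen after seeing the data, 1 gene passed (0.00693%). These counts are background for all genes, and nothing is read from them for genes chosen on the same difference.

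The Bim difference can be formed separately in cells with Id2 and in cells labelled without it, from arrays that are not shared. The Id2KO arrays also differed from all others in sex-linked genes. Sex therefore cannot be told apart from genotype in Id2KOBimKO minus Id2KO or in the interaction below. In BimKO minus WT, the log2 differences were 1.10 for Ttbk2, 0.73 for Ehd4, 0.30 for Ltk, -0.68 for Zfyve19 and -0.64 for Slc4a11. In Id2KOBimKO minus Id2KO they were 1.02 for Ttbk2, 0.67 for Ehd4, 0.62 for Ltk, -0.33 for Zfyve19 and -0.19 for Slc4a11. Ttbk2 and Ehd4 had nearly the same size in both backgrounds, Ltk was larger in the Id2KO background, and Zfyve19 and Slc4a11 were larger with Id2 present. The rule was stated on both genotypes together, so the shared sign is not a separate observation. The test of the difference between the backgrounds, the interaction of Id2 and Bim, was not used by the rule. It came to -0.07 for Ttbk2 (95% interval -0.70 to 0.56, limma adjusted p = 0.928) and -0.06 for Ehd4 (interval -0.78 to 0.66, limma adjusted p = 0.95). For Ltk it was 0.31 (interval -0.25 to 0.88), for Zfyve19 0.35 (interval -0.25 to 0.95) and for Slc4a11 0.45 (interval -0.08 to 0.99), each with a limma adjusted p of 0.726. None of the 5 passed in limma or had an unadjusted p under 0.05. Of all genes, 4 passed (0.0277%), the sex-linked Xist, Eif2s3y, Uty and Kdm5d, and 4.27% had an unadjusted p under 0.05. The intervals of Ehd4, Ltk, Zfyve19 and Slc4a11 include differences as large as their own mean Bim differences. That of Ttbk2 is also wide, so that equal size was not shown for any of the 5.

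**Figure D2:**
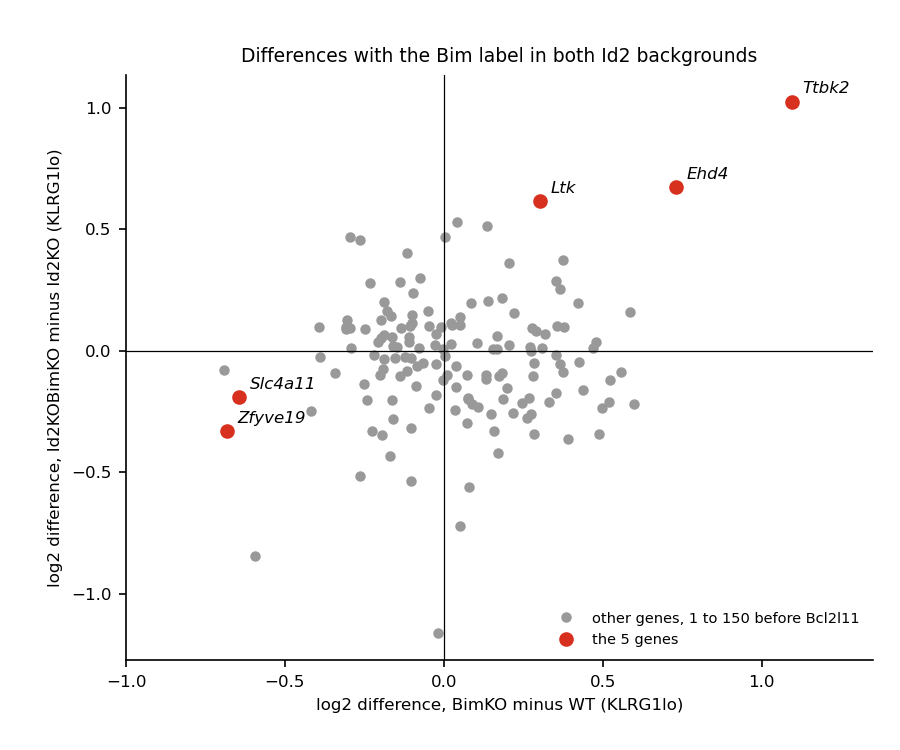
Log2 difference of Id2KOBimKO minus Id2KO (vertical axis) against BimKO minus WT (horizontal axis), both in KLRG1lo cells, for the 5 genes in red and the other tested genes at 1 to 150 places before Bcl2l11 in grey. Ttbk2 at 1.10 and 1.02 and Ehd4 at 0.73 and 0.67 lie in the upper right, and Zfyve19 and Slc4a11 in the lower left.

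Loss of Id2 was not part of the choice, and the 5 genes were tested for it in both Bim backgrounds, on arrays that the choice had used for the Bim difference. Id2 protein keeps E proteins from binding DNA. None of the 5 genes passed in either background. In Id2KO minus WT KLRG1lo cells, Ehd4 had the largest difference, 0.46 (SE 0.22, 95% interval -0.01 to 0.92, limma adjusted p = 0.275), with overlapping arrays. With the array spread as a covariate it was 0.05, the Id2KO arrays having an interquartile range of 2.83 and 2.87, against 2.46 to 2.82 on the WT KLRG1lo arrays. Ttbk2 differed by 0.20 (limma adjusted p = 0.472), Zfyve19 by 0.15 (limma adjusted p = 0.557), Ltk by -0.15 (limma adjusted p = 0.542) and Slc4a11 by 0.02 (limma adjusted p = 0.923). Over all genes tested, 16 passed in limma (0.111%), among them the sex-linked Xist, Eif2s3y, Uty and Kdm5d, and 18.1% had an unadjusted p under 0.05. The Id2KO arrays thus differed widely from WT, and loss of Id2 cannot be told apart from sex in this comparison.

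In Id2KOBimKO minus BimKO cells the differences of the 5 genes ran from 0.12 to 0.50, and the median over all genes was also positive, at 0.03. Zfyve19 was at 6.73 and 6.64 in Id2KOBimKO and 6.46 and 5.90 in BimKO cells, a difference of 0.50 (SE 0.22, limma unadjusted p = 0.0342, adjusted p = 1). Without BimKO replicate 1 it was 0.78, and without BimKO replicate 2 it was 0.22. Slc4a11 differed by 0.48 (SE 0.19, limma unadjusted p = 0.0256, adjusted p = 1), with both Id2KOBimKO arrays above both BimKO arrays and all 4 within or below the range of unnamed probe sets. Ehd4 was also higher on both Id2KOBimKO arrays, by 0.40 (95% interval -0.15 to 0.95, limma adjusted p = 1). Ttbk2 differed by 0.12 and Ltk by 0.17, each with overlapping arrays. No gene of the table passed this comparison in limma (0%), while 262 genes (1.81%) had an unadjusted p under 0.05. The 2 unadjusted values of Zfyve19 and Slc4a11 are reported as not passing. Id2 itself did not pass here either, at -1.10 (limma unadjusted p = 0.000122, adjusted p = 0.587). Not passing therefore does not show that a gene was unchanged.

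The sort by KLRG1 within WT cells did not separate any of the 5 genes. Ehd4 had the largest difference in KLRG1hi minus KLRG1lo cells, 0.39 (SE 0.19, 95% interval -0.01 to 0.79, limma adjusted p = 0.73), with overlapping arrays. Slc4a11 differed by -0.23 (limma adjusted p = 0.887), Ttbk2 by -0.09, Zfyve19 by 0.08 and Ltk by 0.06 (limma adjusted p = 1 for each of these 3). Over all genes 136 passed (0.942%), and 7.2% had an unadjusted p under 0.05. Klrg1 itself was among them, 27.2-fold higher in KLRG1hi cells. Together with both Id2 comparisons and the interaction this made 20 tests of the 5 genes, of which 0 passed in limma, 2 had an unadjusted p under 0.05, and the lowest adjusted p was 0.275.

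**Figure D3:**
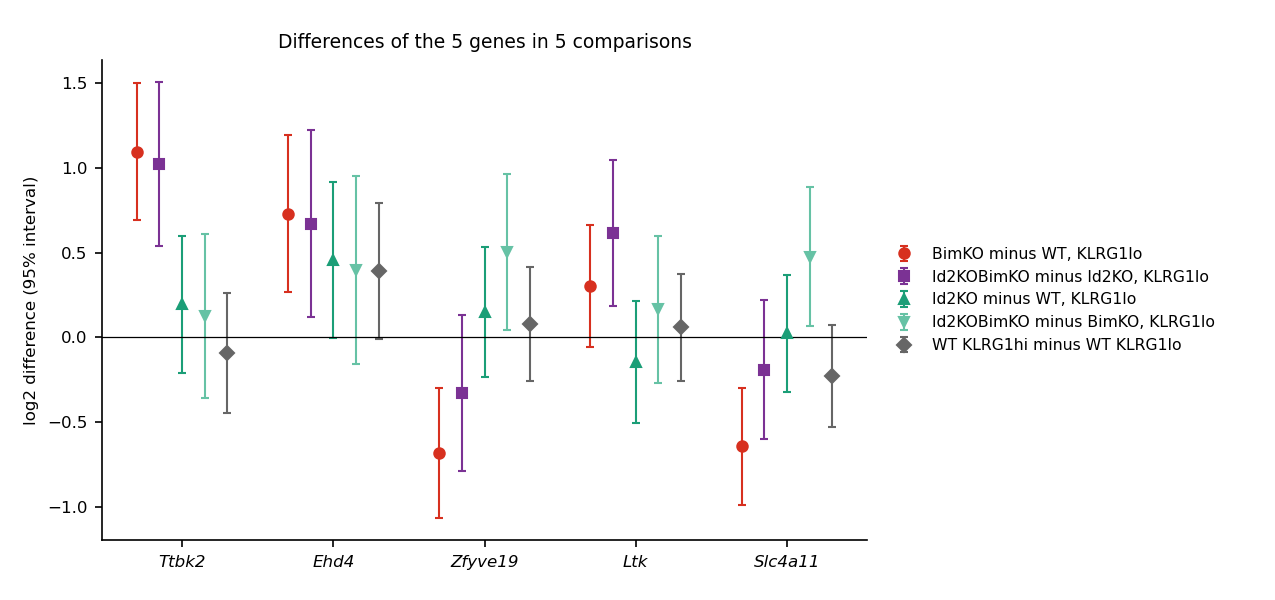
Log2 differences (vertical axis) of the 5 genes with 95% intervals from the limma model, with a colour and marker for each of 5 comparisons. The BimKO minus WT and Id2KOBimKO minus Id2KO points, which the choice of genes used, lie at 1.10 and 1.02 for Ttbk2; the Id2 and KLRG1 comparisons were not used by that choice, though they share arrays with it, and did not pass for any of the 5.

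Among the 5 genes, the signals of Ttbk2 and Ehd4 were the most alike over the 14 arrays (Pearson r = 0.82), followed by Ttbk2 and Ltk (r = 0.71). Zfyve19 and Slc4a11 had r = 0.59, and Zfyve19 had r = -0.53 with Ttbk2 and -0.56 with Ltk. These correlations hold the Bim difference by which the genes were chosen and are given as a description. Over all tested genes outside the 5, the patterns most like Ttbk2 were those of Slc15a2 (r = 0.84), Dtx3 (r = 0.82) and Rdh5 (r = 0.82), and the most opposed that of Tdpoz2 (r = -0.84). Ehd4 was most like Tmem219 (r = 0.87) and most opposed to Osgin1 (r = -0.87). Zfyve19 was most like E2f1 (r = 0.90), a transcription factor of the cell cycle that also lies on chromosome 2, at 185 tested genes after Bcl2l11. Ltk was most like Igsf23 (r = 0.79) and most opposed to Wdr5b (r = -0.79). Slc4a11 was most like Erich3 (r = 0.91), and Smox, among its 3 closest genes (r = 0.79), also lies on chromosome 2, 51 tested genes after Bcl2l11. Of the 15 closest genes, these 2 were on chromosome 2, which held 1151 of the 14438 genes tested. The arrays share groups and array properties, and the correlations therefore do not come from 14 independent conditions.

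The array's own properties were set beside the 5 genes. The interquartile range of log2 values was 2.62 to 2.78 on Bim-deficient and 2.46 to 2.87 on Bim-sufficient KLRG1lo arrays, so that the ranges overlapped. Over the 14 arrays it correlated with Ehd4 at r = 0.58, with Ttbk2 at 0.27, with Zfyve19 at 0.22, with Ltk at -0.24 and with Slc4a11 at -0.04. The median of unnamed probe sets correlated with Zfyve19 at r = -0.56 and with Ttbk2 at 0.48. It was 5.07 to 5.39 on Bim-deficient and 5.01 to 5.27 on Bim-sufficient KLRG1lo arrays. The part of these properties in the differences was not tested beyond the fit with the interquartile range as a covariate, in which the 5 differences kept their sign.

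Other cells in the sort could also carry these transcripts, and in bulk samples a change in the share of a cell type cannot be told apart from a change in RNA per cell. None of 9 lists of cell type markers had a gene whose Bim-deficient arrays lay apart from the Bim-sufficient KLRG1lo arrays. The summed linear signal of 5 B cell markers ran from 201 to 867 on Bim-deficient and from 207 to 846 on Bim-sufficient KLRG1lo arrays. That of 6 monocyte and macrophage markers was 325 to 545 on Bim-deficient and 344 to 799 on Bim-sufficient KLRG1lo arrays, and that of 5 neutrophil markers 169 to 294 on Bim-deficient and 157 to 447 on Bim-sufficient KLRG1lo arrays. The part of such cells in the 5 differences was not tested beyond these levels. Adgre1, Ly6g, Pf4 and Ncr1 are defining genes of macrophages, neutrophils, platelets and NK cells. Each was the 1 gene of its list below the 40th percentile of the array on all 14 arrays. Other genes of these lists were brighter. Over the 14 arrays Cd68 ran from 7.17 to 8.25, S100a9 from 4.68 to 7.96, Itga2b from 5.88 to 6.70 and Klrb1c from 4.90 to 10.54. The dim genes therefore do not show that such cells were absent.

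The 5 genes were then placed along chromosome 2. The array's coordinates were not used, because the submitters' processing notes name mm9 and the gene table is of GRCm38.p6, and only the order of genes was taken from it. Chromosome 2 held 1151 tested genes, 692 before Bcl2l11 and 458 after it. Zfyve19 lay 106 tested genes before Bcl2l11, Ltk 93, Ehd4 87 and Ttbk2 76, so that 4 of the 5 fell within a run of 31 tested genes. Slc4a11 lay on the far side, 36 tested genes after Bcl2l11. The genes had been picked as chromosome 2 genes linked to Bcl2l11. Their being on this chromosome, near Bcl2l11 or near each other is therefore no finding.

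Ranked by the size of the Bim difference over its error, Ttbk2 was 1st, Ehd4 2nd, Zfyve19 4th, Ltk 5th and Slc4a11 7th of the tested genes of chromosome 2. The genes between and just after them were Slc28a2b, a nucleoside transporter paralog at -0.59 (SE 0.15), Pak6 at -0.39 (SE 0.12) and Smox at -0.43 (SE 0.14). Slc28a2b was at 7.32 and 7.90 on the Id2KO arrays and between 6.00 and 6.82 on all others, so its place rests on the Id2KO arrays, and its probes could be shared with the neighbouring Slc28a2 (-0.72). Smox lay 51 tested genes after Bcl2l11 and Pak6 122 before it. Outside the 5, Bloc1s6 at 37 tested genes before Bcl2l11 (0.31) and Wdsub1 at 353 before it (-0.23) were the other chromosome 2 genes whose Bim-deficient and Bim-sufficient KLRG1lo arrays did not overlap.

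The genes next to Bcl2l11 and next to the 5 were read as well. The 5 were chosen for a large difference, so that neighbours with smaller ones are no finding. The 5 nearest tested genes on each side, Mal, Mall, Mtln, Bub1 and Acoxl before it and Morrbid, Anapc1, Mertk, Tmem87b and Fbln7 after it, had mean Bim differences of -0.12 to 0.37. The highest was that of Bub1, a mitotic checkpoint kinase. None of these 10 genes had separate arrays. The nearest tested genes on either side of each of the 5, among them Cdan1 beside Ttbk2 (-0.07), Ppp1r14d beside Zfyve19 (0.03), and Itpka (-0.06) and Rpap1 (0.15) beside Ltk, ranged between -0.15 and 0.19, and again none of the 10 had separate arrays.

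**Figure D4:**
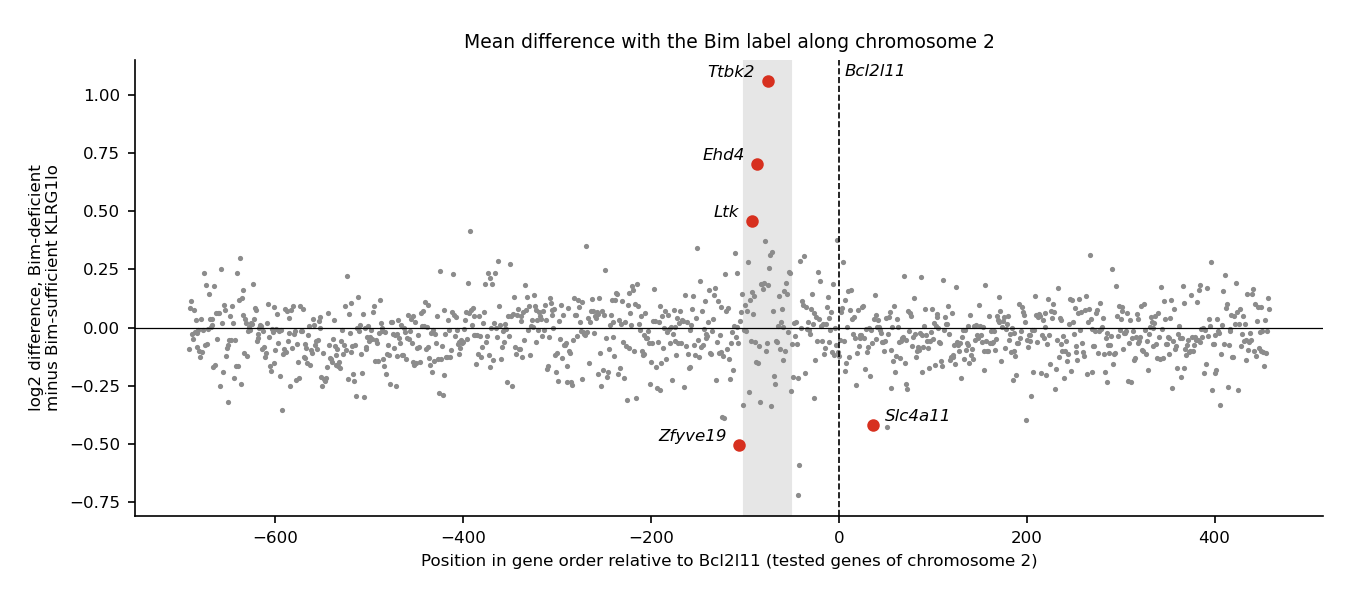
Mean log2 difference of Bim-deficient minus Bim-sufficient KLRG1lo arrays (vertical axis) for the 1151 tested genes of chromosome 2 and Bcl2l11 itself among them, in gene order with Bcl2l11 at 0 (horizontal axis). The 5 genes are red and the shaded band marks 51 to 100 tested genes before Bcl2l11; Ttbk2 at 1.06 is the highest point, and most genes lie between -0.25 and 0.25.

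Differences over a wider stretch were compared with those of all genes tested. Within 200 tested genes on each side of Bcl2l11, the median absolute Bim difference was 0.07 on the log2 scale, against 0.08 over all 14438 genes. In this window of 400 genes 8.25% exceeded 0.25 in size, or 7.09% of the 395 genes left without the 5, against 4.68% over all genes. By runs of 50 tested genes, 4 exceeded 0.25 at 151 to 200 genes before Bcl2l11, 5 at 101 to 150 (Zfyve19 included), 12 at 51 to 100 and 6 at 1 to 50. After Bcl2l11 there were 2 at 1 to 50 genes (Slc4a11 included), 3 at 51 to 100, 0 at 101 to 150 and 1 at 151 to 200. The 6 at 1 to 50 genes before Bcl2l11 included Slc28a2 and Slc28a2b, the second of which rests on the Id2KO arrays. All 4 of these runs before Bcl2l11 held a larger share than all genes, at 8.0% to 24.0%, as did the run at 51 to 100 genes after it (6.0%). Some runs of chromosome 2 beyond 200 tested genes from Bcl2l11 also exceeded the share of all genes. They held 6.0%, or 7.14% in a run of 42 genes, so that a share above that of all genes was not particular to the runs near Bcl2l11. The highest share was in the stretch of 51 to 100 genes before Bcl2l11, which holds Ttbk2, Ehd4 and Ltk. There the median absolute difference was 0.15, and 12 of 50 genes (24.0%) exceeded 0.25. With the 3 genes left out, 9 of the other 47 did (19.1%), and the median absolute difference was 0.14. The 254 runs of 50 tested genes on the other chromosomes reached a median of at most 0.13 and at most 8 genes over 0.25. The median of the stretch was 0.126 with the offset of 16 and 0.117 without BimKO replicate 2, below that maximum, while the other runs were read only with all arrays and no offset. The other runs of chromosome 2 had medians of 0.05 to 0.10.

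The same stretch was read in the other comparisons. Its median absolute difference was 0.27 in BimKO minus WT, against 0.17 over all genes, and 0 of the 254 other runs were larger. With Ttbk2, Ehd4 and Ltk left out it was 0.248, below the largest of the other runs at 0.265. In Id2KOBimKO minus Id2KO the median of all 50 genes was 0.11, against 0.13 over all genes, and 226 of the 254 runs were larger. The median of the stretch was above that of all genes in 1 of the 2 Bim comparisons. Both make up the mean Bim difference by which the stretch was singled out. Its ranks among the other runs, here and above, are therefore a description and no test. In WT KLRG1hi minus WT KLRG1lo cells, a comparison with no Bim label, its median was 0.15, against 0.12 over all genes, and 28 of the 254 runs were larger. Across the 50 genes, the differences of BimKO minus WT and of Id2KOBimKO minus Id2KO correlated at r = 0.30, and at -0.05 once Ttbk2, Ehd4 and Ltk were left out, against -0.38 over all genes tested. Genes are not independent replicates, and these values describe the arrays at hand.

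**Figure D5:**
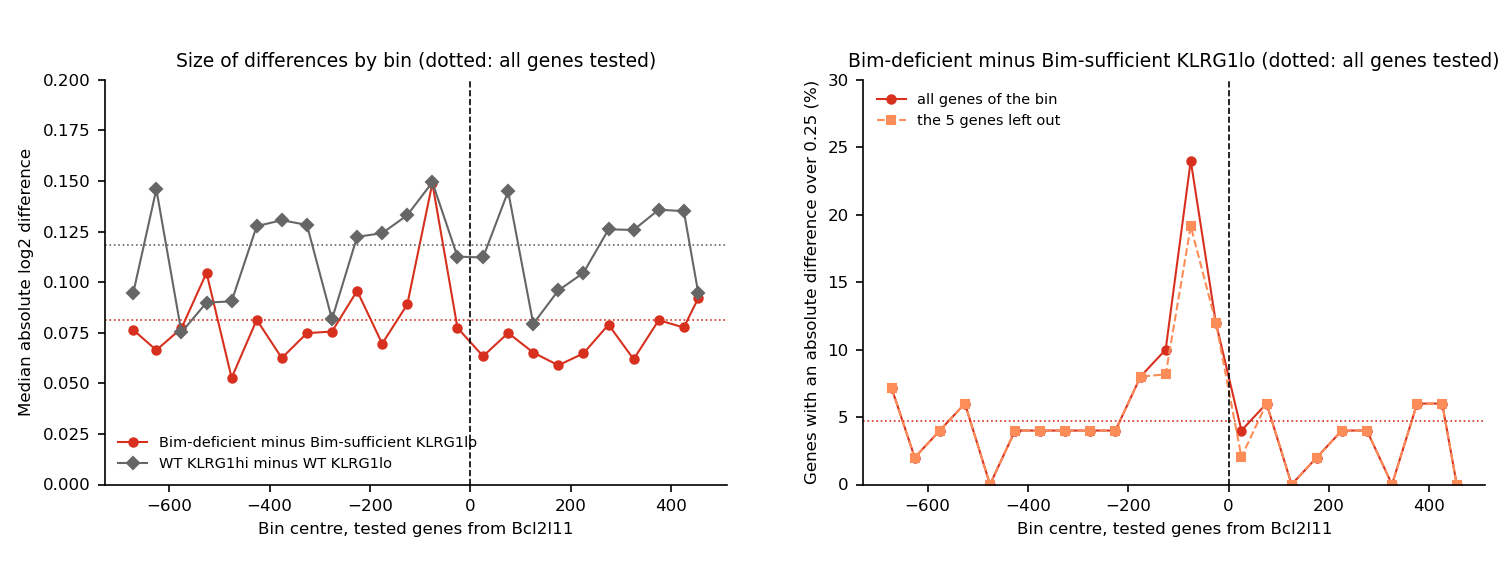
Runs of up to 50 tested genes along chromosome 2, counted outward from Bcl2l11 at 0 (horizontal axes). The left panel gives the median absolute log2 difference of each run for the Bim comparison (red) and for WT KLRG1hi minus WT KLRG1lo (grey), and the right panel the percentage of genes over 0.25 in size in the Bim comparison, with the 5 genes kept or left out; the run at 51 to 100 genes before Bcl2l11 reaches 24.0%, or 19.1% without them, against a dotted line at 4.68% for all genes.

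The genes that work with the 5 were described from lists of their pathways. Outside the 5 genes, none of the lists had a gene that passed in the mean Bim difference or in either Id2 comparison. Of 12 tested genes of cilium assembly, which include Cep164 of the distal appendages and Ift88 of intraflagellar transport, 9 had a positive mean Bim difference, with a median of 0.04, against -0.03 over all genes. Apart from Ttbk2 they stayed within 0.16 of 0, with Ift88 lowest at -0.16. The 12 genes of endosome recycling around the EHD proteins had a median of -0.00, with Ehd4 the highest and Rab8a, a small GTPase, the lowest at -0.16. In Id2KO minus WT cells 11 of these 12 had a positive difference and their median was 0.35, against 0.03 over all genes, with none past the threshold; Rab8a was the highest there, at 0.65 (limma adjusted p = 0.275). The wider spread of the Id2KO arrays, given above for Ehd4, went with this shift, and its part in it was not tested.

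The 15 tested genes of abscission and of ESCRT-III, the complex that cuts the last bridge between daughter cells, had a median Bim difference of -0.05, with Zfyve19 the lowest and the kinase Ulk3 the highest at 0.19. Cdca8, a subunit of the chromosomal passenger complex, was the 1 gene of the lists that passed in another comparison. It rose by 0.73 in KLRG1hi against KLRG1lo WT cells, at 6.46, 6.95 and 6.89 on the KLRG1hi and 5.93 to 6.16 on the KLRG1lo arrays. Zfyve19 did not move with it, as given above. The 7 tested genes around the ALK family receptors had a median of -0.03, and Ltk was the highest and the adaptor Shc1 the lowest at -0.18. Of 7 tested SLC4 transporters, Slc4a11 was the lowest, 1 had a positive difference, Slc4a1, the anion exchanger of red cells, at 0.68 (SE 0.40, limma adjusted p = 1), and the median was -0.07. Slc4a1 was at 6.09 and 8.37 in Id2KOBimKO and 6.09 and 7.16 in BimKO cells, against 5.86 and 5.66 in Id2KO and 5.79 to 7.73 in WT KLRG1lo cells. Its mean was 6.62 in BimKO and 6.73 in WT KLRG1lo cells. The positive value thus rests on Id2KOBimKO minus Id2KO (1.47), with Id2KOBimKO replicate 2 high and both Id2KO arrays low. The red cell marker Alas2 ran from 5.36 to 8.20 on Bim-deficient and 5.11 to 8.12 on Bim-sufficient KLRG1lo arrays, and its part was not tested.

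The pathway of Bim itself showed no gene past the threshold. The 14 tested genes of mitochondrial death had a median Bim difference of -0.08, against -0.03 over all genes. Bmf, another BH3-only gene, was the lowest at -0.39 (SE 0.17, limma unadjusted p = 0.0358, adjusted p = 1), and Bcl2, which holds Bim in check, was the highest at 0.18 (SE 0.20, limma adjusted p = 1). Bmf also lies on chromosome 2, 124 tested genes before Bcl2l11. Bcl2l11 itself stood at -0.12.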

How the data were processed

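RNA of 14 sorted T cell samples was amplified in rounds and hybridised to 1 array each, per the labels' protocols. The authors deposited an RMA intensity, linear as its values show, for each of 34760 probe sets. RMA and mm9 are named in the submitters' processing notes without versions. Other steps are not stated. The scale and centring against scanner values stay unknown. Log2 was taken with no offset. Of the probe sets 21640 carried 1 gene name, 1321 several and 11799 none; 21553 were found in RefSeq. The probe set with the highest mean stood for a gene, and genes were tested where at least 2 arrays had them above that array's 40th percentile. limma 3.58.1 in R 4.3.3 fitted 5 group means to all 14 arrays (9 residual and 7.99 prior degrees of freedom), two-sided, and p-values were adjusted by Benjamini-Hochberg over the 14438 genes. The model was tested on simulated data. Tables were made with Python 3.11.15 (pandas 2.3.3, numpy 2.4.6, matplotlib 3.10.9), and the R package data.table, version 1.17.8, read and wrote files.

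The 5 genes, the gene and marker lists and the tests were chosen with earlier results of these data known. The genes named were the 5, Bcl2l11, Id2 and Klrg1, their neighbours in gene order, window genes that passed with separate arrays, the list genes with the smallest unadjusted p, and the 3 most like and most opposed patterns; Pak6, Smox, Slc28a2, Slc28a2b, Wdsub1, Bloc1s6 and the sex-linked genes were named after their values were seen. The number of arrays limits the precision. Same-numbered arrays had correlations of their deviations between -0.52 and 0.41, and the numbers were not treated as pairs. Alternatives were no filter, quantile normalization, a robust trended fit, a replicate block, an offset of 16, the mean over probe sets, the array spread as a covariate, other window widths and each array left out.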

Additional observations from a re-analysis of the deposited data

How the results depend on the processing

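The mean Bim differences of the 5 genes kept their sign under all 22 alternatives, at 0.91 to 1.16 for Ttbk2, 0.61 to 0.93 for Ehd4, -0.65 to -0.37 for Zfyve19, 0.38 to 0.53 for Ltk and -0.47 to -0.28 for Slc4a11. Several alternatives could not move these values: no filter, the robust trended fit, the mean over probe sets and leaving out a WT KLRG1hi array. The genes were also chosen on this difference, so the kept sign is a description and no test. None of 420 values of the 5 genes in the comparisons that the choice did not use passed under an alternative (lowest limma adjusted p 0.113), and 14 of them changed sign. In the window of 200 tested genes on each side of Bcl2l11 1 gene passed for the mean Bim difference, a chosen gene (Ttbk2), so that its call is no test. That count was 0 with the replicate block and without Id2KOBimKO replicate 2, BimKO replicate 2 or Id2KO replicate 1, a range of 0 to 1 with single arrays left out, and 2 (Ttbk2 and Ehd4) when the array spread was a covariate. The reversed values were 0.0667 for Ehd4 with the replicate block, 0.267 for Ehd4 and 0.0862 for Ttbk2 with the array spread, all in the interaction, and -0.0005 for Ttbk2 in Id2KO minus WT with the array spread. With single arrays left out, the interaction ran from -0.24 to 0.0943 for Ttbk2 and -0.20 to 0.086 for Ehd4. Likewise Ttbk2 ran from -0.0404 to 0.29 in Id2KOBimKO minus BimKO and -0.29 to 0.13 in KLRG1hi minus KLRG1lo cells, Zfyve19 from -0.0466 to 0.27 and Ltk from -0.0393 to 0.22 in KLRG1hi minus KLRG1lo cells, and Slc4a11 from -0.079 to 0.13 in Id2KO minus WT. Single arrays also moved other values. Without BimKO replicates 1 and 2, Ltk was 0.45 and 0.15 in BimKO minus WT, and the interaction of Zfyve19 was 0.63 and 0.07. Ehd4 in KLRG1hi minus KLRG1lo cells was 0.61 without WT KLRG1hi replicate 1 and 0.23 without replicate 3. Over all genes, 0 passed in BimKO minus WT in limma (998, or 6.91%, at an unadjusted p under 0.05), with 0 to 8 when single arrays were left out, 8 of them without BimKO replicate 1 and 1 without WT KLRG1hi replicate 1. Id2KOBimKO minus BimKO gave 0 to 3, with 3 without BimKO replicate 1, 1 with quantile normalization and 4 with the array spread. Id2KO minus WT gave 16, 5 with the replicate block, and 4 to 39 with single arrays left out: 4 and 7 without Id2KO replicates 2 and 1, and 31, 37 and 39 without WT KLRG1hi replicates 1 and 3 and WT KLRG1lo replicate 2. WT KLRG1hi minus KLRG1lo gave 136, 226 with quantile normalization, 42 with the replicate block, 376 with the array spread, and 45 to 179 with single arrays left out: 45 without WT KLRG1hi replicate 2 and 73 to 89 without WT KLRG1lo replicates 1, 3, 4 or 5. The mean Bim difference gave 5, and 1 without the Id2KO arrays, an alternative added after seeing the data. The cause of these changes was not tested, other than that fewer arrays leave fewer degrees of freedom. Leaving out an array of a pair assumes that the lone array varies like the other groups.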
